A study of Mus musculus with 24 samples.

Results

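Genes of protein folding, quality control and stress signalling in the endoplasmic reticulum were followed over a day in mouse heart. The group holds 34 listed genes, and 33 of them had a probe set that named no other gene, out of 22180 genes measured. The listed folding enzyme gene Pdia4 shared its probe set with another gene in the annotation and was left out. By role, 18 of the 33 were chaperones and folding enzymes, 8 acted in degradation, 6 were sensors or regulators, and Sec61b belongs to the translocation channel. Of the 33 genes, 30 had 1 probe set and 3 (Edem1, Derl2 and Sec61b) had 2, which were averaged.

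Hearts came from male wild-type C57Bl/6 mice aged 8 weeks and kept under 12 h of light and 12 h of dark. Collection fell on 3 hours of the light phase, ZT03, ZT07 and ZT11, and on 3 of the dark phase, ZT15, ZT19 and ZT23, where ZT counts hours from lights-on. Each time had 4 arrays named as biological replicates, 24 in all. Every animal was untreated as far as the labels say, and no other genotype, treatment or day was used here. Each value is a log2 difference from the median of that gene over the 24 arrays, with base 2 assumed. Differences between times can be read from such values, whereas the level of one gene cannot be set against another's. For the same reason the labelled tissue could not be checked against heart markers.

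Secreted and membrane proteins fold in the endoplasmic reticulum, where chaperones hold the growing chain, disulfide isomerases pair its cysteines and lectins retain unfinished glycoproteins. Proteins that fail to fold are drawn back through the membrane, tagged with ubiquitin and degraded. When unfolded protein builds up, the sensors IRE1, ATF6 and PERK start the unfolded protein response, in which XBP1, the cleaved ATF6 and ATF4 switch on chaperone and degradation genes and, under lasting stress, Ddit3. In heart the pathway is known for its part in calcium handling, in ischaemia and in hypertrophy.

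Promoter sequences are shown first, since ATF6 and XBP1 are known to act on chaperone genes through the endoplasmic reticulum stress element (ERSE, the letters CCAAT, then 9 bases of any kind, then CCACG) and a shorter form (ERSE-II, the letters ATTGG, then 1 base of any kind, then CCACG). RefSeq promoters of GRCm38.p6, from 250 bases before to 50 after the annotated start, were matched by symbol for 29 of the 34 listed genes. An exact ERSE on either strand was found in 9 of these 29 (31.0%), against 37 of 27025 genes in the table (0.137%). Of chaperones and folding enzymes, 7 of 16 held it, of degradation genes 2 of 7, and of sensors and regulators 0 of 5. ERSE-II was found in Herpud1 and Dnajb11, 2 of the 12 genes in the whole table that held it. With up to 1 of the fixed ERSE letters changed, 15 of the 29 matched (51.7%), Pdia3 and Herpud1 among them, against 1.72% of all genes. Both forms of the element were already known from this pathway, so their shares among members are no independent result. A match is a match of letters only, and binding was not measured.

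Below are the promoters of 3 rhythmic folding genes, Hspa5 (chr2:34771840-34772139), Dnajc3 (chr14:118937682-118937981) and Pdia3 (chr2:121413652-121413951), and of Herpud1 (chr8:94386179-94386478), the degradation gene with the largest rhythm. All lie on the plus strand. Capitals mark an exact ERSE or, in Herpud1, ERSE-II. The ERSE began 65 bases before the start in Hspa5 and 105 bases before it in Dnajc3, and the ERSE-II of Herpud1 began 52 bases before it.
Hspa5: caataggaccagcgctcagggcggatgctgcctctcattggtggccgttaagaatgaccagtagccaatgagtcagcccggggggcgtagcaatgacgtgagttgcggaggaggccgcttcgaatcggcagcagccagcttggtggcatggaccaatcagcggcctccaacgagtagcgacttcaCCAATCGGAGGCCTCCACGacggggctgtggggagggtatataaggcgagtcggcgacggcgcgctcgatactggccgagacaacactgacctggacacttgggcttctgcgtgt
Dnajc3: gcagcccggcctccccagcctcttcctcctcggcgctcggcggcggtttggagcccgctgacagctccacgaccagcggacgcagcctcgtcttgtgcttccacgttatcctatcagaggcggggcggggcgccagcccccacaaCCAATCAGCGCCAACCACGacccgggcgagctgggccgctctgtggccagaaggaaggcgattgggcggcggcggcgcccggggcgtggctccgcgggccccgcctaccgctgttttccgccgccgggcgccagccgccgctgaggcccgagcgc
Pdia3: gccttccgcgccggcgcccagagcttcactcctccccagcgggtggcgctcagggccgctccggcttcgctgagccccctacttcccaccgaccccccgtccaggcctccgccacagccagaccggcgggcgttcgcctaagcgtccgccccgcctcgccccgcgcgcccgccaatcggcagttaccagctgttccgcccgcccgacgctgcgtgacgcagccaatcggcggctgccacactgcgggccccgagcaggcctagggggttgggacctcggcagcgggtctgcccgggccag
Herpud1: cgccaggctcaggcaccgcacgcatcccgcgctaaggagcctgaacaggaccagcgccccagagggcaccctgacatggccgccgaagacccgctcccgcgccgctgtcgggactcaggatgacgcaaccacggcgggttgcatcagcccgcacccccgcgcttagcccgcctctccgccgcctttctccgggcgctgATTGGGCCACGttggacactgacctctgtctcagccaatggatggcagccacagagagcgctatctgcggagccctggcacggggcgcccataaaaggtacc

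The other exact matches among members are given on the motif's own strand, with its fixed letters in capitals, to show how the spacer differs from gene to gene. Hsp90b1 had 2 of them.
Calr: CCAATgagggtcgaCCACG
Canx: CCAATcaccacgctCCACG
Creld2: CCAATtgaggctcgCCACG
Derl3: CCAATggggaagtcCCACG
Hsp90b1 (downstream site): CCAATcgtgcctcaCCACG
Hsp90b1 (upstream site): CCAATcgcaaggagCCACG
Pdia6: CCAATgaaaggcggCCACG
Syvn1: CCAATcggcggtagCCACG
Dnajb11 (ERSE-II): ATTGGcCCACG

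Of the 9 genes with an exact ERSE, 2 had a 24-h rhythm, Hspa5 and Dnajc3. Of the 19 measured members whose promoter lacked it, 6 had one, among them Herpud1 with its ERSE-II and Pdia3 with its near match. The share over all genes was 7.61%. No promoter was available for the rhythmic genes Atf6, Hyou1 and Manf, or for Hspa13 and Derl1, so these are in neither count. The counts were not tested against each other. The median peak-to-trough fold was 1.09 among the 9 and 1.10 among the 19. Of the other motifs searched, an E-box (CACGTG, bound by CLOCK and BMAL1) lay in the promoters of Calr, Derl3 and Dnajb9, 10.3% of members against 8.09% of all genes, and a D-box (TTATGTAA) in that of Sec61b, 3.45% against 1.11%. None of these 4 genes had a 24-h rhythm. The UPRE core (TGACGTGG) and the CRE (TGACGTCA) were found in 0 of the 29 windows and in 0.714% and 2.03% of all genes. The Calr promoter held both an ERSE and an E-box, as did that of Derl3, at separate positions.

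The test of a 24-h rhythm fitted a cosine and sine pair to the 24 arrays (limma's moderated test, adjusted over all genes). It called 11 of the 33 members (33.3%), against 7.61% of all genes and 8.47% of protein-coding genes. The members were listed with earlier results of these data known, so this share and those that follow are descriptive only. The share was 5 of 18 chaperones and folding enzymes (27.8%), 3 of 8 degradation genes (37.5%) and 3 of 6 sensors and regulators (50%), and Sec61b was not called. Peaks fell in the dark in 6 of the 11 (18.2% of members, against 3.78% of all genes) and in the light in 5 (15.2%, against 3.83%). Of these 5, Manf, Hspa5 and Os9 peaked within their SE of lights-on or lights-off, so their phase is not settled. The median peak-to-trough fold of the 33 was 1.10, and that of all genes 1.06. In this fit the amplitude is the peak minus the mean on the log2 scale, and the fold is 2 to the power of 2 amplitudes. A single cycle was sampled, so a return on the next day was not tested, and an effect of light cannot be told apart from one of the clock. No batch was given for the arrays, so one shared by the arrays of a time cannot be told apart from time. In whole tissue, less RNA per cell and fewer cells of a type cannot be told apart either.

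The rhythmic chaperones peaked from the end of the night to just after lights-on, whereas Herpud1, Os9 and Ddit3 peaked from about lights-off into the early night. Atf6 and Xbp1 peaked late in the night, near Dnajc3. In order of the clock from dusk, the peaks were Os9 at ZT 11.9 ± 0.70 (SE, in h), Herpud1 at ZT 14.2 ± 0.23, Ddit3 at ZT 15.6 ± 0.78 and Edem1 at ZT 18.5 ± 1.01. Next came Atf6 at ZT 21 ± 0.49, Xbp1 at ZT 21.2 ± 0.92 and Dnajc3 at ZT 21.6 ± 0.76. Around lights-on followed Manf at ZT 0.241 ± 0.855, Hspa5 at ZT 0.325 ± 0.663, Pdia3 at ZT 1.71 ± 0.58 and Hyou1 at ZT 1.93 ± 0.83. Neighbours in this order lay within 2 combined SE of each other in 6 of 11 cases, among them Atf6, Xbp1 and Dnajc3, and Manf, Hspa5, Pdia3 and Hyou1. From Hyou1 to Os9 there was a gap of 9.97 h in which no called member peaked.

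**Figure D1:**
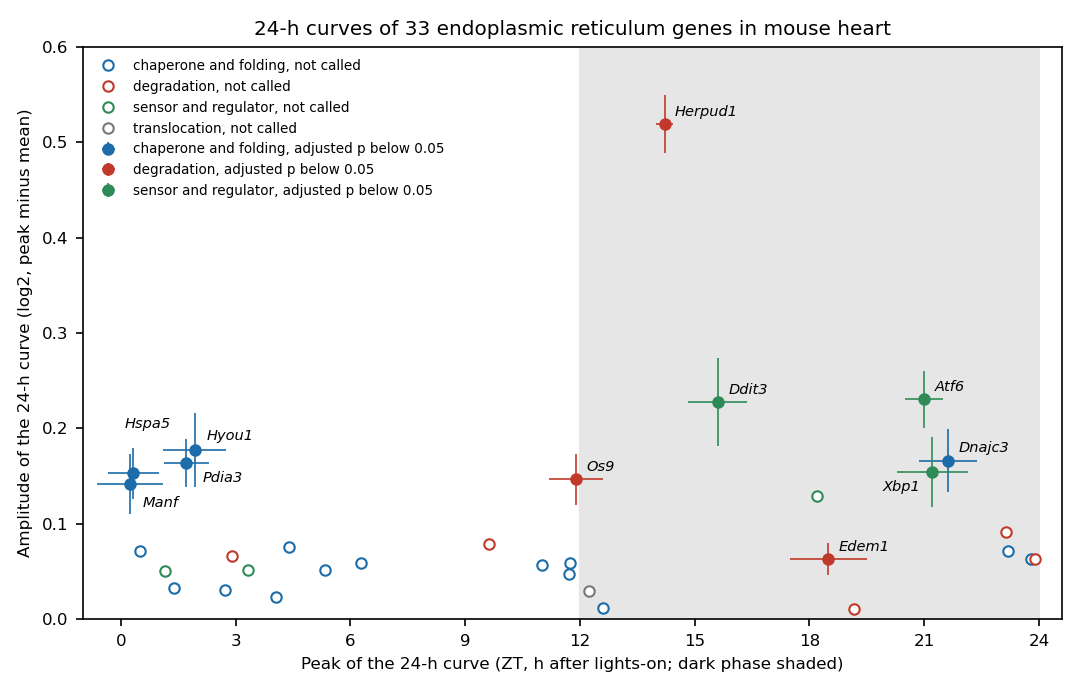
Amplitude of the 24-h curve (log2) against its peak time (ZT, h) for the 33 genes, coloured by role, with the dark phase shaded. Filled points with SE bars are the 11 genes with an adjusted p below 0.05 and open points are the others. Herpud1 stands alone at 0.52, and the rhythmic chaperones lie at both edges of the plot, around lights-on.

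Hspa5 encodes BiP, the main HSP70 chaperone of the endoplasmic reticulum, which also holds the sensors inactive. Hspa5 read 0.042, 0.15, 0.0061 and 0.015 in the 4 arrays of ZT03, 0.03, 0.17, -0.064 and -0.027 in those of ZT07, and -0.19, -0.16, -0.23 and -0.24 in those of ZT11. After dark it read -0.12, -0.25, -0.13 and -0.12 at ZT15, -0.055, 0.048, 0.047 and 0.19 at ZT19, and -0.0061, 0.079, 0.072 and 0.28 at ZT23. All 8 arrays of ZT11 and ZT15 lay below all 16 arrays of the other times. The amplitude was 0.15 ± 0.027 (SE, 24 arrays), a 1.24-fold change (limma, adjusted p = 0.00148). The lowest time mean was -0.20 ± 0.036 (SD, n = 4) at ZT11 and the highest 0.11 ± 0.12 at ZT23.

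Pdia3 encodes ERp57, the disulfide isomerase that works with calnexin and calreticulin on glycoproteins. By replicate, Pdia3 was at 0.27, 0.10, 0.20 and -0.0078 at ZT03, at 0.075, 0.01, -0.036 and 0.09 at ZT07, and at -0.28, 0.0029, -0.16 and -0.26 at ZT11. Night arrays gave -0.14, -0.065, -0.26 and -0.089 at ZT15, -0.0029, 0.038, -0.15 and -0.09 at ZT19, and 0.13, 0.10, 0.073 and 0.10 at ZT23. Its 4 arrays at ZT15 and 3 of 4 at ZT11 were below 0, and all 4 at ZT23 were above. The 1.26-fold change had an amplitude of 0.16 ± 0.025 (limma, adjusted p = 0.000346). One array at ZT11 overlapped the range of ZT03.

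Hyou1 encodes GRP170, a large HSP70-like chaperone that serves as nucleotide exchange factor for BiP. The daytime values of Hyou1 were 0.033, 0.26, 0.064 and 0.23 (ZT03), 0.12, 0.025, 0.24 and 0.09 (ZT07), and -0.50, -0.19, -0.28 and -0.094 (ZT11). Those of the dark phase were -0.13, -0.042, -0.19 and -0.28 (ZT15), 0.12, -0.025, -0.11 and 0.027 (ZT19), and -0.12, -0.03, 0.21 and 0.03 (ZT23). All arrays of ZT03 and ZT07 lay above 0 and all of ZT11 and ZT15 below it. Values at ZT19 and ZT23 fell on both sides. The amplitude was 0.18 ± 0.039, a 1.28-fold change (limma, adjusted p = 0.0121).

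Manf encodes a secreted protein that binds BiP and is released when the reticulum loses calcium. At ZT03 the 4 arrays gave Manf values of 0.13, 0.19, 0.02 and -0.034, at ZT07 -0.12, 0.13, 0.0025 and -0.15, and at ZT11 -0.043, -0.16, -0.27 and -0.13. In the night ZT15 gave 0.012, 0.048, -0.33 and -0.09, ZT19 gave -0.013, 0.083, -0.16 and -0.0025, and ZT23 gave 0.09, 0.15, 0.10 and 0.30. The 4 arrays of ZT23 lay above all 4 of ZT11, and ZT15 was spread widely by replicate 3. The change was 1.22-fold (amplitude 0.14 ± 0.032, limma, adjusted p = 0.0153).

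Dnajc3 encodes P58IPK, a J-domain partner of BiP that also inhibits PERK. Dnajc3 read -0.022, 0.13, -0.026 and 0.0044 in the 4 arrays of ZT03, -0.083, -0.0044, -0.27 and 0.055 in those of ZT07, and -0.21, -0.22, -0.13 and -0.062 in those of ZT11. After dark it read -0.028, 0.16, -0.18 and 0.089 at ZT15, 0.13, 0.10, 0.11 and 0.23 at ZT19, and -0.014, 0.087, 0.43 and 0.28 at ZT23. All arrays of ZT19 lay above all of ZT11, and those of ZT23 ran from -0.014 to 0.43. The change was 1.26-fold (amplitude 0.17 ± 0.033, limma, adjusted p = 0.00566).

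The other 13 chaperones and folding enzymes did not pass the test of a 24-h rhythm, with folds from 1.02 to 1.11 and adjusted p from 0.0964 to 0.959. Hsp90b1, the HSP90 of the reticulum, was closest (1.11-fold, peak at ZT 4.39, limma, adjusted p = 0.0964). The lectin chaperones Canx (1.09-fold, limma, adjusted p = 0.316) and Calr (1.05-fold, adjusted p = 0.753) and the prolyl isomerase Ppib (1.04-fold, adjusted p = 0.860) were not called. P4hb, the founding disulfide isomerase, had the lowest fold of the 13, 1.02. The J-domain genes Dnajb9 (1.10-fold) and Dnajb11 (1.03-fold), both partners of BiP, and the reductase Dnajc10 (1.08-fold) were not called. Dnajb9 was lowest on average at ZT19 (-0.12 ± 0.056, SD, n = 4) and highest at ZT23 (0.13 ± 0.064), and these times did not overlap. Both times were picked as the extremes, and any difference among times was not called for Dnajb9 (limma's moderated F, adjusted p = 0.66). The highest and lowest times were likewise apart in 8 of the 22 members without a 24-h rhythm, Dnajb9 included. The widest spread of Dnajb9 was at ZT15, from -0.49 to 0.32. Also without a call were the disulfide isomerases Pdia5 (1.07-fold) and Pdia6 (1.07-fold), the HSP70 relative Hspa13 (1.09-fold), and Sdf2l1 (1.10-fold) and Creld2 (1.09-fold), both known targets of the stress response.

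**Figure D2:**
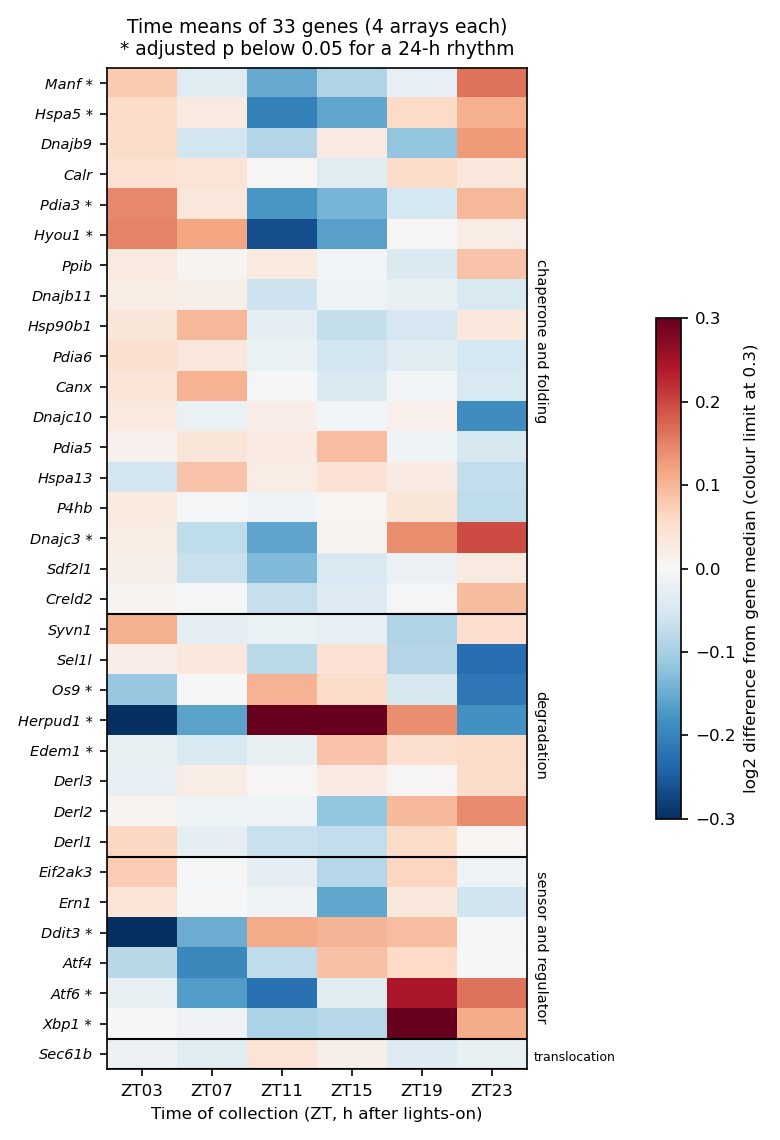
Mean log2 difference from the gene's median at each time (columns, 4 arrays each) for the 33 genes (rows), grouped by role and ordered by peak time, with colours capped at 0.3. Stars mark the 11 genes with a 24-h rhythm. Hspa5, Pdia3 and Hyou1 are low at ZT11 and ZT15, where Herpud1 is high, and Xbp1 and Atf6 are highest at ZT19.

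Among genes of degradation, Herpud1 had the largest rhythm. It encodes a membrane protein that assembles the ubiquitin ligase complex for degradation and is induced by the stress response. By replicate, Herpud1 was at -0.54, -0.57, -0.55 and -0.51 at ZT03, at -0.19, -0.13, -0.17 and -0.15 at ZT07, and at 0.52, 0.43, 0.37 and 0.64 at ZT11. Night arrays gave 0.44, 0.52, 0.57 and 0.46 at ZT15, 0.27, 0.12, 0.11 and 0.062 at ZT19, and -0.26, -0.19, -0.21 and -0.062 at ZT23. All 8 arrays of ZT11 and ZT15 lay above all others, and the 4 of ZT03 below all others. The time mean went from -0.54 ± 0.025 (SD, n = 4) at ZT03 to 0.50 ± 0.059 at ZT15, a 2.06-fold difference. The fitted change was 2.05-fold, with an amplitude of 0.52 ± 0.031 (limma, adjusted p = 2.07e-10). The next largest amplitude, that of Atf6, was 0.23.

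Os9 encodes a lectin that delivers misfolded glycoproteins to the ligase. The daytime values of Os9 were -0.28, -0.11, 0.0052 and -0.062 (ZT03), -0.10, -0.084, 0.12 and 0.072 (ZT07), and 0.074, 0.15, 0.16 and 0.033 (ZT11). Those of the dark phase were 0.0022, 0.16, 0.058 and -0.0022 (ZT15), -0.16, -0.11, 0.022 and 0.065 (ZT19), and -0.073, -0.33, -0.19 and -0.27 (ZT23). All of ZT11 lay above 0 and all of ZT23 below it, with ZT07 and ZT19 on both sides. The change was 1.23-fold (amplitude 0.15 ± 0.027, limma, adjusted p = 0.00265).

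Edem1 encodes a mannosidase-like protein that picks glycoproteins for degradation. At ZT03 the 4 arrays gave Edem1 values of -0.039, -0.072, 0.013 and 0.0058, at ZT07 -0.057, -0.029, -0.084 and -0.012, and at ZT11 -0.039, -0.089, 0.0056 and 0.032. In the night ZT15 gave 0.088, 0.071, 0.0002 and 0.18, ZT19 gave 0.0048, 0.13, 0.038 and 0.021, and ZT23 gave 0.036, 0.14, 0.053 and -0.0021. The 4 arrays of ZT07 lay below those of ZT15. The change was small, 1.09-fold, and passed narrowly (limma, adjusted p = 0.0498). The call was lost without any 1 of 20 arrays (adjusted p up to 0.109) and held without ZT15 replicate 3, ZT19 replicate 1, ZT19 replicate 4 or ZT23 replicate 4. It was also lost with robust variances (adjusted p = 0.0520), when the 3 arrays of lowest weight were dropped (0.0698) and in both probe sets taken singly (0.199 and 0.352).

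The ligase genes Syvn1 (1.10-fold, limma, adjusted p = 0.169) and Sel1l (1.11-fold, adjusted p = 0.378) and the channel genes Derl1, Derl2 and Derl3 were not called. Sel1l, the scaffold of the ligase, was low at ZT23 in all arrays, -0.21, -0.15, -0.36 and -0.19. Its means at the other times lay between -0.087 and 0.044. Derl3 had a fold of 1.01, the lowest of all members. The 2 probe sets of Derl2 gave 1.11-fold and 1.16-fold, neither called. Sec61b, a subunit of the channel through which new proteins enter the reticulum, had a 1.04-fold change (limma, adjusted p = 0.763).

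Of the sensors, Atf6 had the clearest rhythm. It encodes the membrane-bound factor that is cut in the Golgi and moves to chaperone promoters. Atf6 read 0.076, 0.077, -0.12 and -0.12 in the 4 arrays of ZT03, -0.18, -0.016, -0.13 and -0.35 in those of ZT07, and -0.18, -0.25, -0.23 and -0.24 in those of ZT11. After dark it read -0.27, 0.016, -0.018 and 0.14 at ZT15, 0.27, 0.15, 0.30 and 0.27 at ZT19, and 0.18, 0.17, 0.086 and 0.21 at ZT23. All 8 arrays of ZT19 and ZT23 were above 0 and all 8 of ZT07 and ZT11 below. The change was 1.38-fold (amplitude 0.23 ± 0.030, limma, adjusted p = 4.58e-05).

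Xbp1 encodes the factor whose RNA is spliced by IRE1, and the gene-level values used here do not separate spliced from unspliced RNA. By replicate, Xbp1 was at -0.049, 0.18, -0.086 and -0.041 at ZT03, at -0.037, -0.0065, -0.03 and 0.033 at ZT07, and at 0.04, -0.16, -0.066 and -0.19 at ZT11. Night arrays gave 0.0065, -0.25, 0.032 and -0.13 at ZT15, 0.39, 0.36, 0.28 and 0.24 at ZT19, and -0.036, 0.25, 0.11 and 0.12 at ZT23. ZT19 stood out with a mean of 0.32 ± 0.066 (SD, n = 4), and of the other 20 arrays only ZT23 replicate 2 reached its range. The change was 1.24-fold (amplitude 0.15 ± 0.037, limma, adjusted p = 0.0260). The call was lost without ZT11 replicate 4, ZT19 replicate 1, 2 or 3, or ZT23 replicate 2 (adjusted p up to 0.0556).

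Ddit3 encodes CHOP, the factor of lasting stress. The daytime values of Ddit3 were -0.44, -0.24, -0.32 and -0.57 (ZT03), -0.16, -0.44, -0.16 and 0.17 (ZT07), and 0.17, 0.035, 0.19 and 0.043 (ZT11). Those of the dark phase were -0.0015, 0.37, 0.066 and -0.026 (ZT15), 0.22, 0.085, 0.12 and -0.05 (ZT19), and 0.10, 0.0015, -0.028 and -0.095 (ZT23). ZT03 was low in every array, with a mean of -0.39 ± 0.15 (SD, n = 4), and ZT07 overlapped it. From ZT11 to ZT23 the means lay between -0.0054 and 0.11. The change was 1.37-fold (amplitude 0.23 ± 0.046, limma, adjusted p = 0.00698).

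Atf4, the factor translated when PERK is active, was not called (1.20-fold, limma, adjusted p = 0.155). At ZT03 the 4 arrays gave Atf4 values of -0.24, -0.087, -0.013 and 0.011, at ZT07 -0.08, -0.29, -0.44 and 0.037, and at ZT11 -0.19, 0.034, -0.017 and -0.14. In the night ZT15 gave 0.29, 0.12, -0.011 and -0.044, ZT19 gave 0.015, 0.053, 0.042 and 0.13, and ZT23 gave 0.11, 0.06, 0.21 and -0.38. The values were spread within times, and ZT23 replicate 4 lay far below the others of its time. Without that array the gene was called (adjusted p = 0.0363), as it was when the 3 arrays of lowest weight were dropped (0.0145).

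Eif2ak3, the gene of PERK, was not called either (1.07-fold, limma, adjusted p = 0.559). Eif2ak3 read 0.14, 0.19, 0.016 and -0.042 in the 4 arrays of ZT03, 0.0074, -0.092, -0.13 and 0.20 in those of ZT07, and -0.04, -0.075, -0.0094 and 0.013 in those of ZT11. After dark it read -0.016, -0.16, 0.0093 and -0.17 at ZT15, 0.0015, 0.20, -0.0004 and 0.057 at ZT19, and 0.0004, -0.067, 0.032 and -0.026 at ZT23. Every time overlapped every other.

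Ern1, the gene of IRE1, had a 1.07-fold change (limma, adjusted p = 0.721). By replicate, Ern1 was at -0.035, 0.029, 0.061 and 0.11 at ZT03, at 0.11, -0.13, -0.079 and 0.10 at ZT07, and at -0.22, 0.14, -0.10 and 0.14 at ZT11. Night arrays gave -0.27, -0.19, 0.018 and -0.18 at ZT15, 0.062, -0.026, 0.07 and 0.023 at ZT19, and -0.086, -0.018, 0.16 and -0.29 at ZT23. Values at ZT15 were the lowest on average, and their range overlapped that of ZT03.

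**Figure D3:**
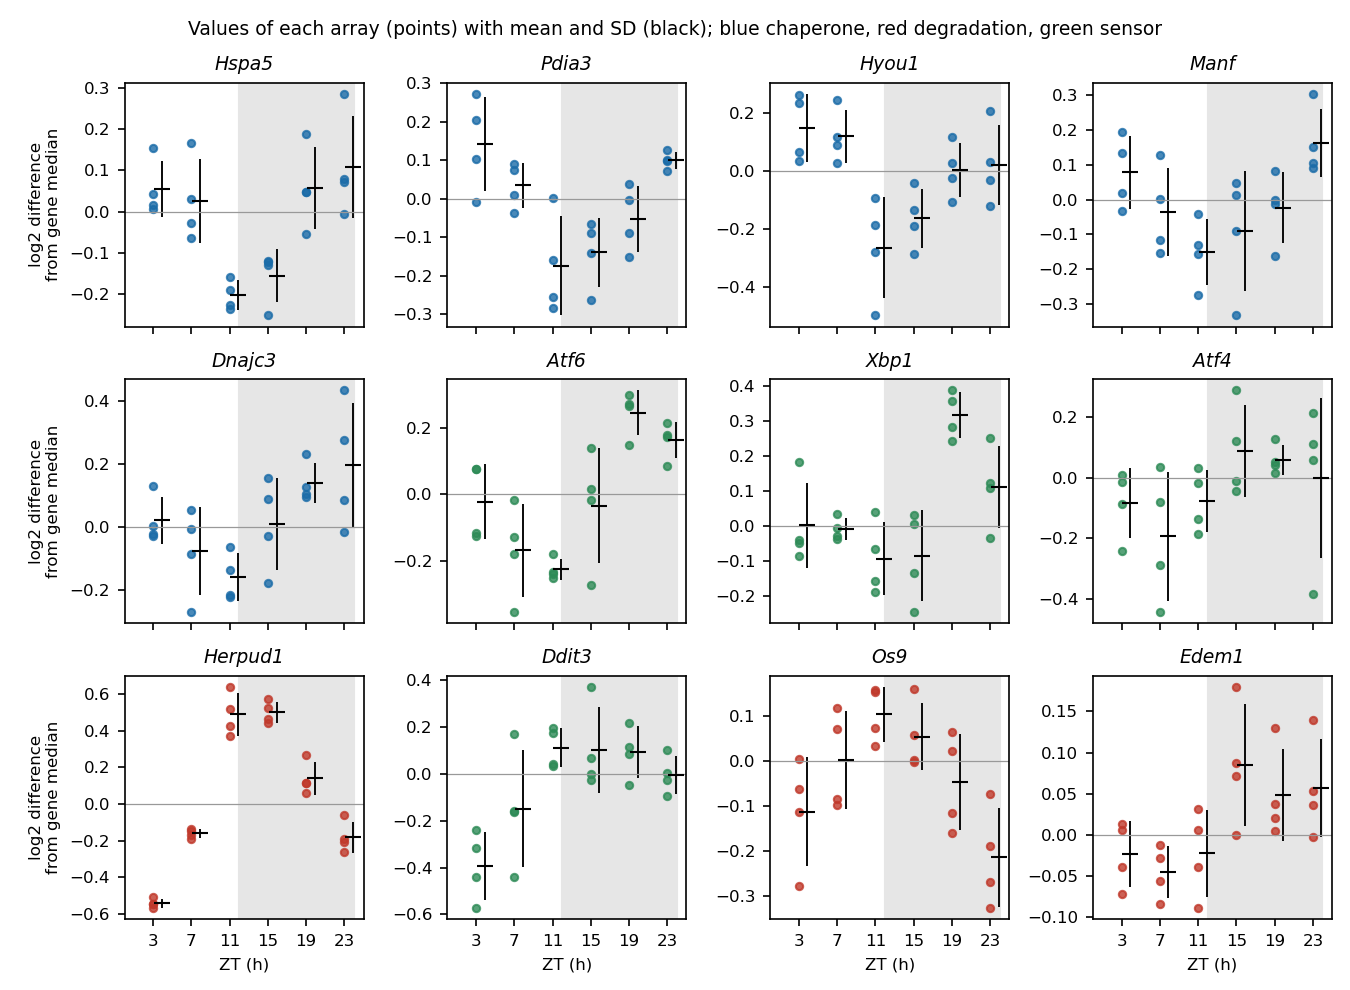
Log2 difference from the gene's median in each array (points) against time of collection (ZT, h) for 12 genes, with the mean and SD beside them and the dark phase shaded. The vertical scale differs between panels. Hspa5 is lowest at ZT11 and ZT15, where Herpud1 is highest, and Xbp1 is highest at ZT19.

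Any difference among the 6 times, tested without a set shape, was called in 8 of 33 members (24.2%) against 4.72% of all genes (limma's moderated F). These were Herpud1, Atf6, Xbp1, Hspa5, Pdia3, Hyou1, Ddit3 and Os9. Of the 11 rhythmic members, Dnajc3 (adjusted p = 0.0736), Manf (0.128) and Edem1 (0.193) did not pass. In the 22 members without a 24-h rhythm, time means differed by 0.079 to 0.28 between the highest and lowest time.

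Dusk against dawn, the mean of ZT11 and ZT15 minus that of ZT23 and ZT03, gave 3 members higher at dusk (9.09%) and 5 lower (15.2%), against 2.06% and 1.70% of all genes. Of the 18 chaperones and folding enzymes 4 were lower at dusk (22.2%) and 0 higher (limma; at an unadjusted p below 0.05 there were 6 lower and 0 higher). The 4 were Hyou1 (log2 -0.30 ± 0.058, SE, 8 arrays against 8), Pdia3 (-0.28 ± 0.045), Hspa5 (-0.26 ± 0.043) and Manf (-0.24 ± 0.057). Herpud1 was 1.81-fold higher at dusk (log2 0.85 ± 0.038, limma, adjusted p = 1.37e-12), Ddit3 1.24-fold (0.31 ± 0.073, adjusted p = 0.0164) and Os9 1.18-fold (0.24 ± 0.048, adjusted p = 0.00364). Atf6 was lower at dusk (-0.20 ± 0.052, limma, adjusted p = 0.0310). The Atf6 call was lost without any of 9 arrays. These were ZT03 replicates 1 and 2, ZT11 replicates 2, 3 and 4, ZT15 replicate 1, and ZT23 replicates 1, 2 and 4. Over all alternatives run, the adjusted p of Atf6 reached 0.0761 (limma). Over all 18 chaperones and folding enzymes the median difference was -0.069, and 14 of 18 were below 0, against a median of 0.0020 and 48.4% below 0 over all genes. Over the 8 degradation genes the median was 0.0068, with 4 below 0 (limma, unadjusted p below 0.05: 2 higher and 2 lower). Over the 6 sensors and regulators it was -0.080, with 4 below 0. Over 26 other measured folding genes of the pathway it was -0.011, with 15 below 0 and 0 called in either direction. The difference between the roles was not tested.

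Night against day, the mean of ZT15, ZT19 and ZT23 minus that of ZT03, ZT07 and ZT11, gave 5 members higher at night (15.2%) against 1.89% of all genes. No member was lower (0 of 33 in limma, 1 at an unadjusted p below 0.05), against 2.49% of all genes. Of the 128 other measured genes of the pathway, 3 were higher at night (2.34%) and 8 lower (6.25%). The 5 members higher at night were Atf6 (log2 0.26 ± 0.042, SE, 12 arrays against 12, 1.20-fold), Herpud1 (0.22 ± 0.031), Dnajc3 (0.19 ± 0.049), Xbp1 (0.15 ± 0.040) and Edem1 (0.094 ± 0.024). Ddit3 missed the threshold (0.21 ± 0.059, limma, adjusted p = 0.0507). The count fell to 3 without ZT03 replicate 3, ZT03 replicate 4, ZT07 replicate 3 or ZT11 replicate 2, when neither Dnajc3 nor Xbp1 was called. The Dnajc3 call was also lost without ZT15 replicate 2, ZT15 replicate 4, ZT19 replicate 4 or ZT23 replicate 4 (adjusted p up to 0.0568). That of Xbp1 was lost without 15 of the 24 arrays, and over all alternatives run its adjusted p reached 0.0804 (limma). The Xbp1 call held without ZT03 replicate 2, ZT07 replicates 2 and 4, ZT11 replicate 1, ZT15 replicates 2 and 4, ZT19 replicates 3 and 4, or ZT23 replicate 1. Both comparisons use the same 24 arrays in 1 fit, so their calls are not independent of each other.

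**Figure D4:**
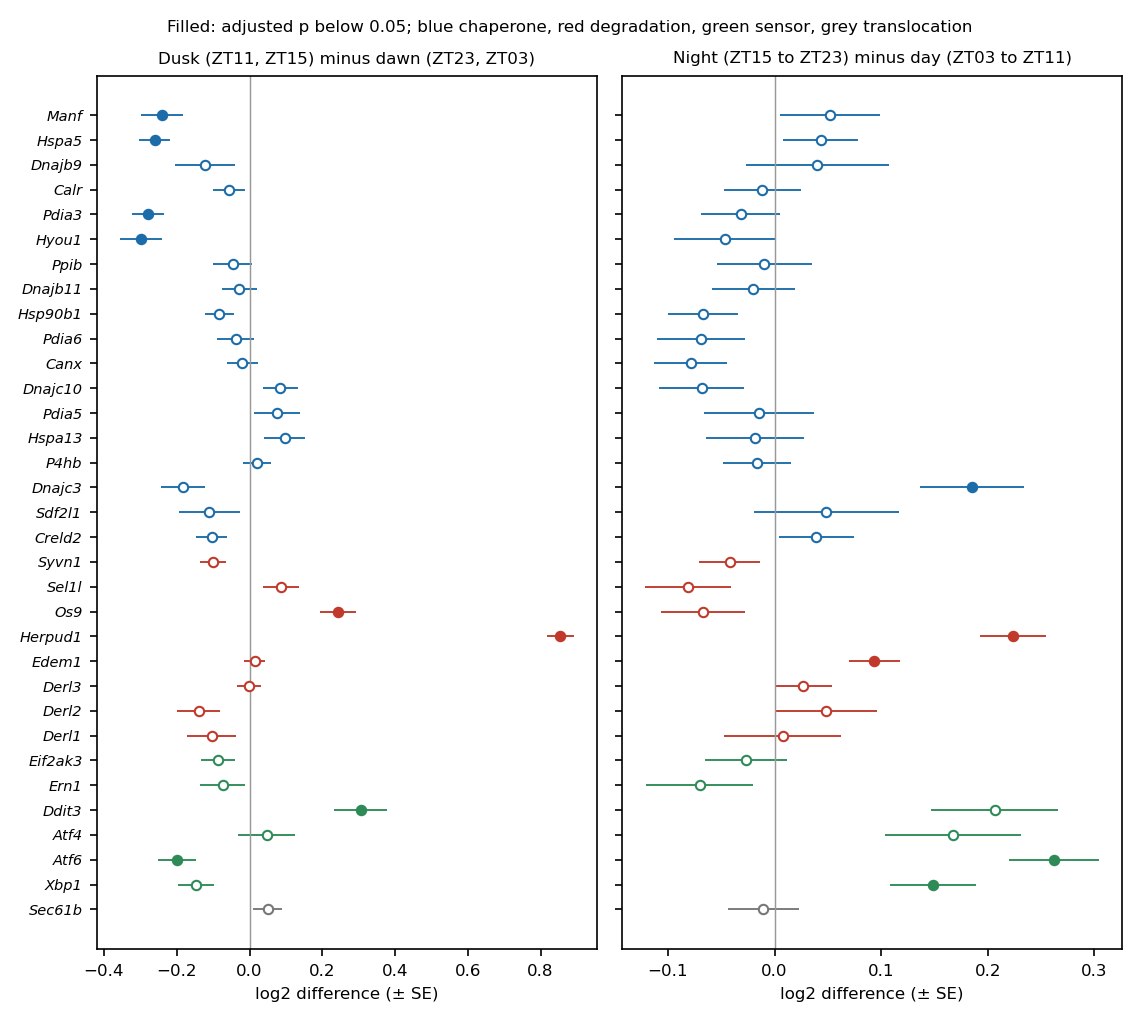
Log2 difference with its SE for each of the 33 genes, at dusk minus dawn (left) and at night minus day (right), coloured by role and filled where the adjusted p was below 0.05. Scales differ between the panels. The filled chaperones lie left of 0 at dusk, where Herpud1 reaches 0.85.

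Across the changes of light few members were called, and few of all genes. A step that was not called is not shown to be absent. From ZT11 to ZT15, over lights-off, 0 of 33 were called in limma, with 2 higher and 0 lower at an unadjusted p below 0.05, against 0.113% higher and 0.0902% lower of all genes. From ZT23 to ZT03, over lights-on, Herpud1 was called lower (1 of 33, or 3.03%, against 0.126% of all genes). None was called higher (0 of 33), against 0.559% of all genes. At an unadjusted p below 0.05 in limma, 3 were lower and 2 higher. Without ZT07 replicate 4 the count called lower was 2, with Ddit3 added.

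Genes of this pathway are known for 12-h courses in other tissues, and a 12-h component was tested beside the 24-h terms. In limma 0 of 33 members passed, as did 0% of all genes, with the lowest adjusted p at 0.302. At an unadjusted p below 0.05 there were 6 of 33 (18.2%), against 6.32% of all genes. These were Herpud1 (12-h amplitude 0.11), Xbp1 (0.12), Sel1l (0.11), Hyou1 (0.11), Ddit3 (0.12) and Syvn1 (0.060). By role they were 1 of 18 chaperones, 3 of 8 degradation genes and 2 of 6 sensors and regulators. The maxima of the fitted 12-h terms fell at different hours after lights-on, and each term repeats 12 h later. They lay at 1.48 h for Syvn1, 4.39 h for Sel1l, 5.72 h for Hyou1, 7.48 h for Xbp1, 9.80 h for Ddit3 and 10.9 h for Herpud1. These are maxima of the term alone: at ZT23 the mean of Herpud1 was -0.18 ± 0.086 (SD, n = 4). With times 4 h apart, a 12-h term cannot be told apart from a 24-h course that is not a cosine.

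Of 128 other measured genes of the pathway, 18 had a 24-h rhythm (14.1%, against 7.61% of all genes). They were 7 of 36 genes of signalling and stress response (19.4%), 5 of 38 of translocation and glycosylation (13.2%), 4 of 26 of folding (15.4%) and 2 of 28 of degradation (7.14%, near the share over all genes). Cebpb, a partner of CHOP (1.39-fold, ZT 12.5, limma, adjusted p = 0.000189), and Nfe2l2, the oxidative stress factor NRF2 (1.31-fold, ZT 14.6, adjusted p = 0.000494), peaked near Herpud1. Bcl2l11, the death gene BIM (1.45-fold, ZT 4.81), Map3k5, the kinase ASK1 (1.25-fold, ZT 3.16), and Stc2, a secreted glycoprotein (1.26-fold, ZT 7.95), peaked in the light, as did Vldlr (1.16-fold, ZT 5.97). Creb3l1, a relative of ATF6 that is cut in the same way, peaked at lights-on (1.26-fold, ZT 0.0196 ± 0.826, SE, in h).

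Of translocation and glycosylation, Dad1 and Stt3a, subunits of the oligosaccharyltransferase that attaches glycans, changed 1.55-fold (ZT 19.5) and 1.26-fold (ZT 23.3). Dpagt1 (1.21-fold, ZT 17.4) and Alg5 (1.19-fold, ZT 6.41), enzymes that build the glycan, peaked at different times. The folding enzyme gene Txndc12 (1.22-fold, ZT 21) and the glycoprotein sensor gene Uggt2 (1.15-fold, ZT 5.33) were called. The degradation genes Nploc4, a cofactor of the ATPase that pulls proteins from the membrane (1.13-fold, ZT 16.1), and Faf2 (1.17-fold) were called as well. All 15 genes named here passed limma's test at adjusted p values of 0.0407 or below.

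Markers of other cells in the heart also moved with time. For the counts below, 7.61% of all genes had a 24-h rhythm. Of macrophage markers 6 of 8 had one. Their mean per array was lowest at ZT07, between -0.30 and -0.091, and highest at ZT15, between 0.068 and 0.24. At ZT11, where Herpud1 was as high as at ZT15, they lay between -0.068 and 0.069, and at ZT03, where Herpud1 was lowest, between -0.12 and 0.028. Like Atf6, Herpud1, Dnajc3, Xbp1 and Edem1, 4 of 8 macrophage, 3 of 5 platelet and 1 of 8 fibroblast markers were higher at night. Endothelial, cardiomyocyte, and plasma and B cell markers had 0 higher, and the share over all genes was 1.89%. Of the 5 platelet markers, 3 had a 24-h rhythm. Their array means lay between -0.018 and 1.05 at ZT15, 0.078 and 0.85 at ZT19 and 0.18 and 0.64 at ZT23, against -0.29 to -0.050 over the light phase. Fibroblast markers had 3 of 8 called, with means from 0.054 to 0.15 at ZT03 and from -0.17 to 0.047 at ZT11. Endothelial markers had 1 of 7 called and cardiomyocyte markers 2 of 9. Plasma and B cell markers, from cells rich in this pathway, had 0 of 6 called in limma, with array means between -0.048 and 0.093. Their part in the courses described here was not tested. The spread of all genes was largest in ZT15 replicate 1 (SD 0.168), ZT23 replicate 4 (0.152) and ZT07 replicate 4 (0.148), the 3 arrays of lowest weight, and without them 11 members were called, 10 of them the same.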

How the data were processed

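Expression was measured in 24 mouse hearts, 4 at each of 6 times of day, on 1 Affymetrix mouse gene array each. Biotinylated cRNA was made from 500 ng of total RNA, per the labels' protocols. Per array and probe set, the deposited table holds 1 value, read here as a log2 value. Its base is not stated, and the median of every probe set over the 24 arrays is 0, so no expression level is kept and signal over background is unknown. That higher values mean more RNA is an assumption as well. How the authors summarised, corrected and normalized the arrays, and with which software, is not given in the sources used here.

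Of 34351 probe sets, 23521 named a single gene and were averaged into 22180 genes. Tests were limma 3.58.1 (R 4.3.3) moderated tests on all 24 arrays, adjusted over the 22180 genes by Benjamini-Hochberg, with a threshold of 0.05. The models were a 24-h cosine and sine, a 12-h pair added to it, and contrasts of the 6 time means (18 residual degrees of freedom). The scripts were tested on simulated data. The members and lists were chosen with earlier results of these data known. The values of all arrays are given for members that passed the test of a 24-h rhythm and for sensor and regulator genes, and other members are summarised. Of other pathway genes, the 15 with the smallest p-values below the threshold are named. Alternatives were other probe set summaries, quantile or median scaling, protein-coding genes only, robust variances, array weights, a replicate block and fits without single arrays. Promoter sequences are RefSeq's. Protein sequences were not used here.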

Additional observations from a re-analysis of the deposited data

Results flagged for a closer look

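Among the 198 groups formed by 33 genes and 6 times, 10 (5.05%) held an array whose gap to its nearest neighbour, as a share of the group's range, exceeded Dixon's critical value for 4 arrays. Chance gives about 1 in 20. The 10 cases fell on 10 different arrays.

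Among the chaperones, Hspa5 read -0.25 in ZT15 replicate 2, where the others lay between -0.13 and -0.12. Hsp90b1 read -0.18 in ZT19 replicate 1, and the others lay close to 0. Dnajb11 read -0.24 in ZT15 replicate 3, against 0.039 to 0.072 in the rest. Calr read -0.11 in ZT03 replicate 3, against 0.094 to 0.0998. Ppib stood apart upwards at 2 times, with 0.15 in ZT07 replicate 1 and 0.12 in ZT19 replicate 4.

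Of the degradation genes, Derl2 read -0.20 in ZT07 replicate 4 and 0.19 in ZT11 replicate 2. Derl3 read 0.093 in ZT11 replicate 4. Of the regulators, Xbp1 read 0.18 in ZT03 replicate 2, where the others lay between -0.086 and -0.041.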

How the results depend on the processing

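Of the rhythmic members, 9 (Herpud1, Atf6, Pdia3, Hspa5, Os9, Dnajc3, Ddit3, Hyou1 and Manf) were called in all 33 alternatives run. In the 9 alternatives other than single arrays left out, 10 or 11 members had a 24-h rhythm, 7 or 8 differed among times, 4 to 6 were higher at night and 16 to 24 other pathway genes were rhythmic. Edem1 was lost in 4 of the 9, and Atf4 was gained in 1.

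With single arrays left out, the count of rhythmic members ran from 9 to 12 (chaperones 5 to 5, degradation 2 to 3, sensors and regulators 2 to 4), of members differing among times from 7 to 9, higher at night from 3 to 6, lower at dusk from 4 to 5, lower at ZT03 than ZT23 from 1 to 2, and of other pathway genes from 14 to 23. Counts of members higher at dusk stayed at 3, and 12-h calls, members lower at night, those higher at ZT03 than ZT23 and both lights-off counts at 0.

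Replicate numbers showed no clear pairing of the arrays. Deviations from the time means correlated between -0.228 and 0.226 at the same number and different times (median -0.0102, 60 pairs). At different numbers and times they correlated between -0.2 and 0.303 (median 0.00533, 180 pairs). Of 24 arrays, 8 were closest to one of their own number. With the replicate block 10 members had a 24-h rhythm. Edem1 was lost (adjusted p = 0.0687), as were the night call of Xbp1 and the dusk call of Atf6. Without levels, the limit that signal over background sets is unknown.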

Other observations

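Both regulatory subunits of the phosphatase that reverses PERK's mark on eIF2, chosen after their values were seen, differed among times without a 24-h call. Ppp1r15a (GADD34) stood at 0.35 ± 0.096 (SD, n = 4) on average at ZT03, at 0.11 ± 0.23 at ZT07, and between -0.096 and -0.0029 at the other times. It differed among times (limma, adjusted p = 0.00652) and was not called as a 24-h rhythm (adjusted p = 0.0545). Ppp1r15b (CReP) had means of 0.071 ± 0.048 at ZT03, 0.12 ± 0.053 at ZT07, -0.075 ± 0.041 at ZT11, 0.051 ± 0.050 at ZT15, -0.025 ± 0.042 at ZT19 and -0.15 ± 0.084 at ZT23. It differed among times (limma, adjusted p = 0.00170), and its 12-h component came close to the threshold (adjusted p = 0.0511). From ZT23 to ZT03 the log2 differences were 0.37 ± 0.076 (SE, 4 arrays against 4) for Ppp1r15a and 0.22 ± 0.042 for Ppp1r15b, both called (limma, adjusted p = 0.0215 and 0.0133). Of the 128 other pathway genes, 5 were higher at ZT03 than ZT23 (3.91%), these subunits among them, against 0.559% of all genes. Any difference among times was called in 4.72% of all genes.

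Of 5 other stress response genes, picked after their values were seen, Trib3 (1.03-fold), Chac1 (1.07-fold), Asns (1.05-fold), Atf3 (1.04-fold) and Ddit4 (1.42-fold, adjusted p = 0.0894) were not called as 24-h rhythms in limma. In the whole list of signalling and stress response genes 7 of 36 were called (19.4%), against 7.61% of all genes.

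Outside the listed members, 28 genes held an exact ERSE in their promoter window, and 20 of them were measured. Of these, 1 had a 24-h rhythm, the glycosylation gene Alg12 (5%, against 7.61% of all genes).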
